A study of Mus musculus with 35 samples.

Results

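Ribosomal protein pseudogenes are copies of the messenger RNAs of ribosomal proteins that were reverse transcribed and inserted elsewhere in the genome. The 304 members described here were all genes of the deposited annotation whose name begins with Rpl (large subunit) or Rps (small subunit) and ends in -ps with or without a number, and whose biotype is a pseudogene, out of 55356 annotated genes. They comprised 188 Rpl and 116 Rps names. The study sequenced rRNA-depleted, strand-specific RNA of adult C57BL/6J mice in 29 libraries. Brain, cerebellum, heart and colon were taken from females and males, the female gonad was the ovary and the male gonad the testis. Each combination of tissue and sex had 3 libraries except male heart, which had 2, so that brain, cerebellum and colon had 6 libraries, heart 5, and ovary and testis 3 each. All groups shared the strain and the adult stage, and no treatment or engineered allele was given. The labels did not say which libraries came from the same animal or whether animals were pooled, so *P* values measured the spread between these libraries.

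Cytosolic ribosomal proteins are made in every cell and their genes are among the most strongly transcribed, and their short, abundant messages are a frequent template for retrotransposition by the LINE-1 machinery. A processed pseudogene made in this way lacks introns and the promoter of the gene it was copied from. It collects mutations with time, so that a young copy can still match the coding gene base for base, whereas an old copy carries substitutions, frameshifts and stop codons. Short reads from a young copy and from its coding gene are therefore hard to tell apart, and according to the study's methods only reads that mapped to a unique place were kept. In what follows, the parent of a pseudogene is the coding gene that carries the stem of its name (Rpl31 for Rpl31-ps4). It was found for 302 members and comprised 62 coding genes. Rpl48-ps1 and Rps4l-ps had none.

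By biotype, 296 members were processed and 8 transcribed processed pseudogenes, and 297 had 1 exon. The median exon length was 460 bases. Members lay on 20 chromosomes. Of the 304, 219 lay outside other genes, 61 lay within a gene of the opposite strand and 24 within a gene of the same strand. Exon bases were shared with another gene of the same strand by 9 members and of the opposite strand by 5. The median identity of a member to its parent's transcript was 95.8% (quartiles 90.8% and 98.7%, lowest 68.1%), with 57 members at 99% or more and 14 at 100%. The parent's start codon was kept in 241 members, and 147 held an open frame of at least 95% of the parent's coding length. In a search of all annotated transcripts, 31 members had no stretch of 100 bases that was theirs alone, and in 121 members every such stretch was.

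The sequences of 2 families show what a read could and could not distinguish. Rpl31, a protein of the large subunit, and Rps12, of the small subunit, had the most pseudogenes (24 each), and Rpl31-ps8, Rpl31-ps13 and Rpl31-ps4 were the Rpl31 members with the highest levels. They are shown because they differ in sequence and in tissue. The first line is bases 121 to 300 of the Rpl31 coding sequence (GRCm38.p6, chr1:39367842-39371911, plus strand), and the others are the aligned bases of Rpl31-ps8 (chr15:90764279-90764656, minus strand), Rpl31-ps13 (chr13:100415565-100415942, plus strand) and Rpl31-ps4 (chr16:87549062-87549451, minus strand), from the GENCODE M21 transcripts. Capitals mark bases that differ from the parent.
Rpl31: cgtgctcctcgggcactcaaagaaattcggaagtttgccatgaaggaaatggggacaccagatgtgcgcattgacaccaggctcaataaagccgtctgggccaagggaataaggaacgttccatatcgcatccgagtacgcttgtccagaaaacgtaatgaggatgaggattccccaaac
Rpl31-ps8: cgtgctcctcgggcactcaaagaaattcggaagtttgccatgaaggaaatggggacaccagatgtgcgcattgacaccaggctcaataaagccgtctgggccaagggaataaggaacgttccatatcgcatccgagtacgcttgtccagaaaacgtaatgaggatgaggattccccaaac
Rpl31-ps13: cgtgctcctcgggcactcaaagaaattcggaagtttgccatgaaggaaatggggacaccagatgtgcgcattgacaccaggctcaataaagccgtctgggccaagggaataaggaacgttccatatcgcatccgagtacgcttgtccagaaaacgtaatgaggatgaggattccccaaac
Rpl31-ps4: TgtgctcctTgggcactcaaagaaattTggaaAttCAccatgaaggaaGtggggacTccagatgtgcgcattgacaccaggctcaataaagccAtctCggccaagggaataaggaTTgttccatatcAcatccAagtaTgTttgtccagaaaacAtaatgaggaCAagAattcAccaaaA
Rpl31-ps8 had 0 differences from the parent over its whole length and Rpl31-ps13 had 0 within this window, whereas Rpl31-ps4 had 22 in 180 bases. Over the whole length the identity was 100%, 98.1% and 91.7% respectively.

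Rps27a encodes ubiquitin fused to a protein of the small subunit. Its pseudogenes Rps27a-ps2 (chr9:83409660-83410126, plus strand) and Rps27a-ps1 (chr1:52522239-52522701, plus strand) are shown as a near-identical and a diverged copy, chosen after their values were seen. The first line is bases 1 to 120 of the Rps27a coding sequence (chr11:29545847-29547891, minus strand), and capitals again mark differences.
Rps27a: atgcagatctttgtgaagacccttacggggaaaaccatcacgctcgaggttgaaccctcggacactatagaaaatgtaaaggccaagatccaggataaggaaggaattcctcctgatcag
Rps27a-ps2: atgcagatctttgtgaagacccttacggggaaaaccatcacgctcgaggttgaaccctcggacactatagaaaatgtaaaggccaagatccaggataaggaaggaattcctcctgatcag
Rps27a-ps1: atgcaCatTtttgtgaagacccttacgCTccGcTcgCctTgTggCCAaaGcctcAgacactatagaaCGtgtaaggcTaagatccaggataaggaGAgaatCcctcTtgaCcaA
Rps27a-ps2 was 99.8% identical to the parent over its whole length. Rps27a-ps1 was 87.1% identical, with 23 differing bases in the stretch shown and 7 bases of the parent that had no partner.

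Between 11742417 and 36194255 reads were counted per library. Of 23 genes that mark a tissue or a sex, 22 were higher in every library that carries the label than in all other libraries. The exception was Snap25, a neuronal gene that was shared by brain and cerebellum. The ovary markers were low (Amh at 4.04 FPKM and Zp3 at 0.838 FPKM or more in ovary libraries, against at most 0.926 and 0.238 FPKM elsewhere). FPKM is the read count of a gene divided by its exon length and by the total of counted reads, in the usual units. Replicate 3 of the female heart stood apart from the other heart libraries, with a TMM scaling factor of 1.12 against 0.604 to 0.711 in the other 4.

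The members took a very small part of the reads. Together the 304 pseudogenes received between 347 and 1460 reads per library, and the highest count of any member in any library was 125. Their share of all counted reads was 0.00265% ± 0.000207 in brain (SD, n = 6), 0.00259% ± 0.000334 in cerebellum (n = 6), 0.00243% ± 0.000414 in heart (n = 5), 0.00371% ± 0.000654 in colon (n = 6), 0.00621% ± 0.00169 in ovary (n = 3) and 0.00271% ± 4.45e-05 in testis (n = 3). The 3 ovary libraries, at 0.00483%, 0.00571% and 0.00809%, lay above all other libraries, the highest of which was a colon library at 0.00452%. The 62 parents were also highest in ovary and next in colon, but their heart and testis shares stood in the opposite order to those of the pseudogenes. They took 4.29% ± 0.829 of reads in ovary, 1.78% ± 0.295 in colon, 1.77% ± 0.336 in heart, 1.39% ± 0.109 in brain, 1.13% ± 0.147 in cerebellum and 1.03% ± 0.111 in testis. Parents thus received 700 ± 56.2 times as many reads as the pseudogenes in ovary and 736 ± 138 times in heart, but 381 ± 41.9 times in testis. The heart and testis libraries did not overlap in this ratio.

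**Figure D1:**
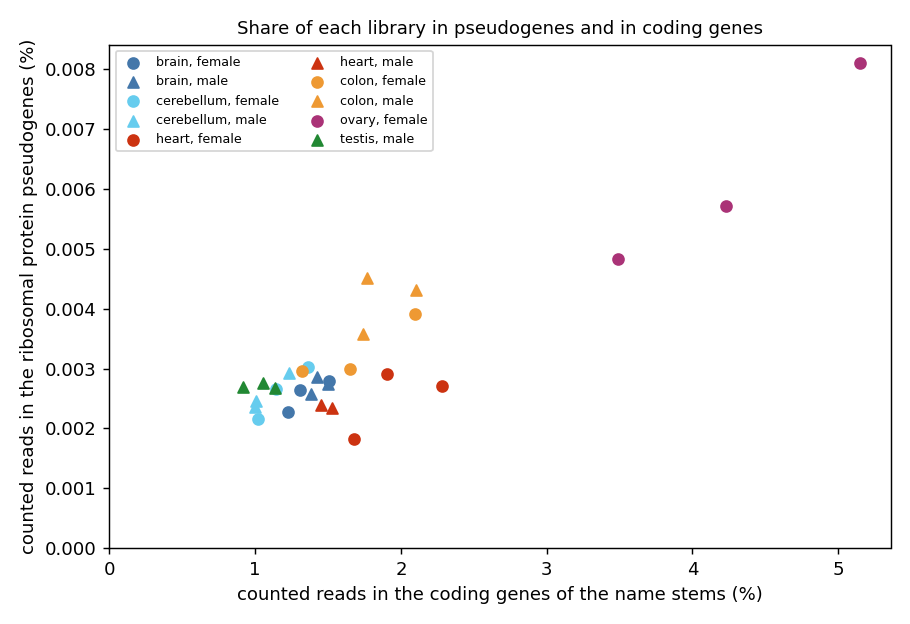
Share of counted reads in the 304 ribosomal protein pseudogenes (y axis, %) against the share in the 62 coding genes of their name stems (x axis, %), 1 point per library, coloured by tissue with circles for female and triangles for male. The 3 ovary libraries lie apart at the upper right, from 3.49% in parents and 0.00483% in pseudogenes upward, and the testis libraries lie at the left end near 0.0027% in pseudogenes.

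No read was counted in any library for 59 members (19.4%), and the median member had 15 reads over all 29 libraries. The level of a gene was taken as its highest tissue mean. At this measure 79 members reached 0.5 FPKM, 44 (14.5%) reached 1 FPKM, 17 reached 2 FPKM and 4 reached 5 FPKM. For comparison, 124 of 1210 other pseudogenes named with -ps (10.2%) and 927 of 9994 other processed pseudogenes (9.28%) reached 1 FPKM, and no read was counted for 44.3% and 32.4% of them. These shares were not tested against each other. All 62 parents exceeded 5 FPKM, with a median highest tissue mean of 539 FPKM. In single libraries rather than tissue means, 75 members reached 1 FPKM at least once.

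Of the 44 members at 1 FPKM or more, 28 had their highest mean in ovary, 7 in testis, 6 in colon and 3 in brain. None had it in cerebellum or heart. At this scaling to library totals all 62 parents were highest in ovary, so the same 28 members peaked where their parent did. Among the other processed pseudogenes at this level, 22.1% peaked in ovary and 39.4% in testis. These counts depended on scaling. With TMM-scaled library totals, which lower the values of the ovary libraries (factors 1.30 to 1.45), 15 of 38 members and 51 of 62 parents were highest in ovary, the other 11 parents were highest in heart, and 16 members peaked with their parent.

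The 12 members with the highest levels were led by 4 copies near 5 FPKM or above, all highest in ovary. Rpl31-ps8 had the highest level of all. Its counts were 91, 116 and 125 reads in the ovary libraries, and the lowest, median and highest were 34, 58 and 94 in brain, 26, 37 and 80 in cerebellum, 19, 37 and 86 in heart and 23, 33 and 64 in colon. In testis it had 27, 32 and 61 reads. It was present in all 29 libraries, and the mean level was 13.0 ± 4.23 FPKM in ovary against 3.51 ± 1.54 FPKM in testis. Its parent Rpl31 reached 375 ± 164 FPKM in ovary and 81.5 ± 5.47 FPKM in testis, so that Rpl31-ps8 stood at 3.45% of its parent's FPKM in ovary. In reads its share was smaller (332 against 41546 over the ovary libraries), since FPKM also divides by the exon length of each gene. A read that lies wholly within this exact copy cannot be told from a read of Rpl31 by sequence, and how its reads were assigned was not tested.

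Rpl17-ps10 (chr7:72648757-72649311) and Rpl17-ps5 (chr5:22612628-22613182), copies of another large subunit gene, had 59 to 95 and 53 to 88 reads in ovary, or 6.19 ± 2.87 and 5.92 ± 2.33 FPKM. Both were lowest in testis, at 1.51 ± 0.465 and 1.36 ± 0.297 FPKM, and both were counted in all 29 libraries. Rpl23a-ps3 (chr14:34170655-34171122) had 47, 49 and 61 reads in ovary (5.00 ± 1.95 FPKM) and at most 23 reads in any library of the other tissues. Its ovary libraries were all above the rest, where the highest level was 2.51 FPKM. These 3 copies were 99.3% to 99.8% identical to their parents.

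Further down among the 12, Rps16-ps2 (3.33 ± 0.441 FPKM), Rpl39-ps (2.80 ± 2.68 FPKM), Rpl10a-ps1 (2.53 ± 1.10 FPKM) and Rpl15-ps2 (2.44 ± 0.403 FPKM) were again highest in ovary. Rps16-ps2 lies on the strand opposite to Adgrd1, an adhesion receptor gene, and shares exon bases with it. Rpl39-ps rested on 4 to 16 reads per ovary library, and its SD was nearly as large as its mean. Rps23-ps1 was highest in brain (25 to 68 reads, 3.37 ± 1.48 FPKM), followed by cerebellum (19 to 43 reads, 2.92 ± 0.819 FPKM). The brain and cerebellum libraries overlapped for Rps23-ps1, whose sequence is identical to its parent and which shares exon bases with Gm5148 on the opposite strand. Rpl36-ps3 and Rpl31-ps4 were highest in testis.

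**Figure D2:**
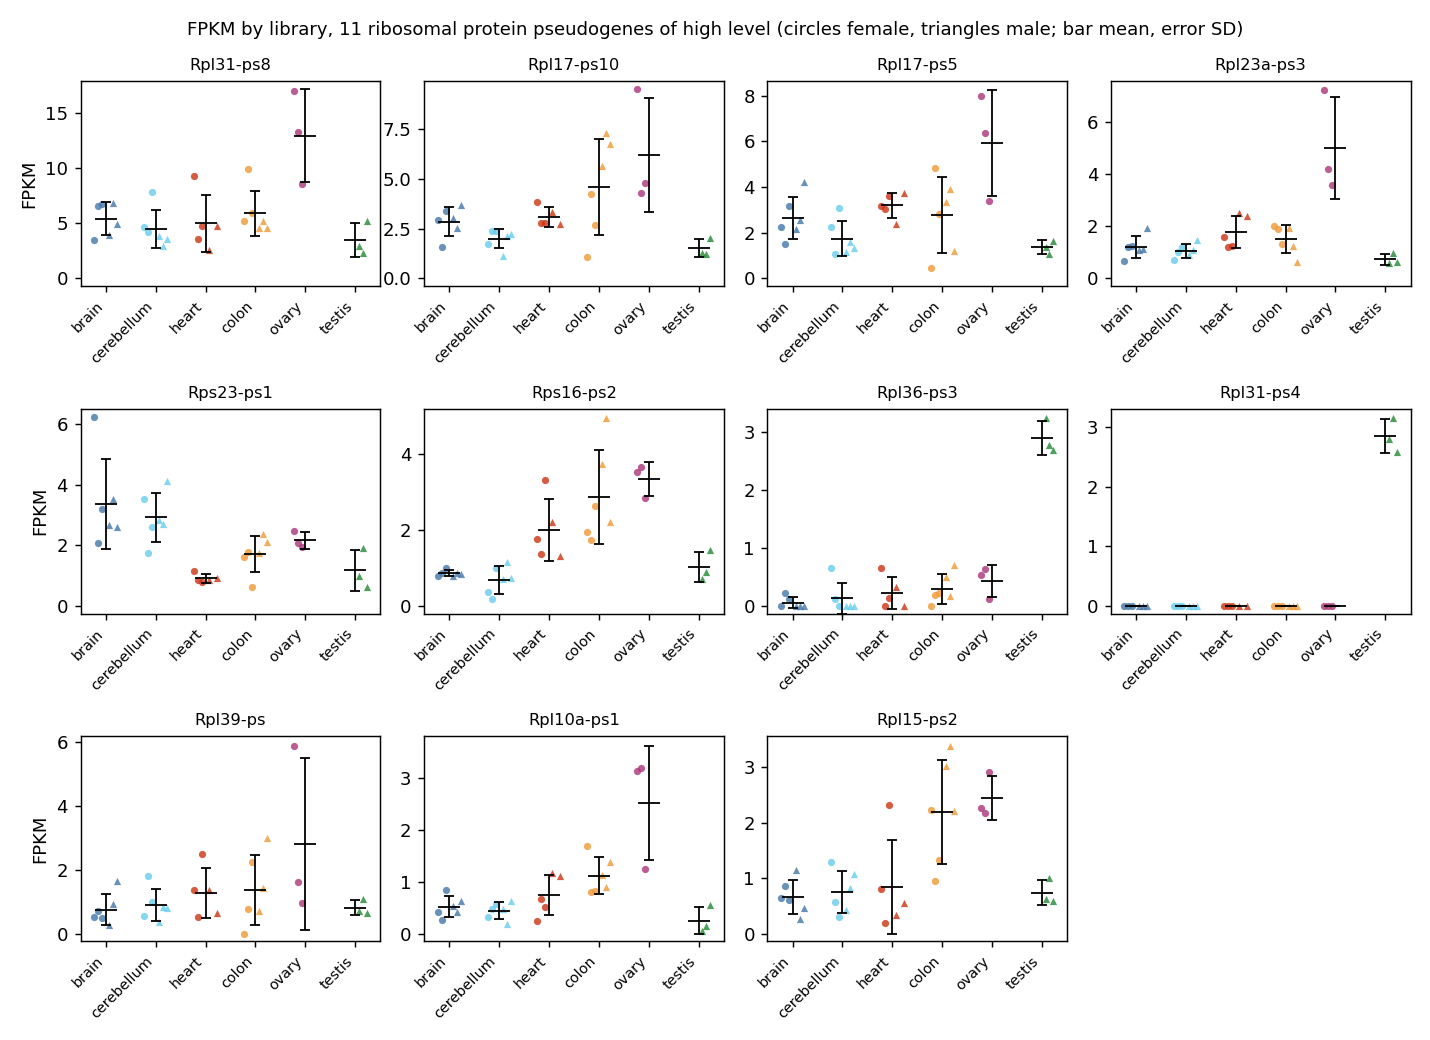
FPKM (y axis) of 11 of the 12 ribosomal protein pseudogenes with the highest tissue mean, by tissue (x axis), 1 point per library with circles for female and triangles for male; black bars give the mean and error bars the SD. Rpl31-ps8 to Rpl23a-ps3 are highest in ovary and present in every tissue, whereas Rpl31-ps4 is at 0 in every library outside testis.

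Levels were also described by how much of a copy could be matched to its parent. Of the 302 members with a parent, 149 held at least 1 stretch of 100 bases that also stands in the parent's transcripts, and 153 held none. Among the 149, 38 (25.5%) reached 1 FPKM, of which 27 peaked in ovary. Among the 153, 6 (3.92%) reached it, of which 1 peaked in ovary, 2 in brain, 2 in testis and 1 in colon. At 1 FPKM or more, the correlation between the tissue profile of a member and that of its parent over the 6 tissue means (log2 of FPKM plus 0.1) had a median of 0.88 in the first set and 0.22 in the second. The points of each correlation share libraries and depth. Across these sets, 31 of the 304 members had no stretch of 100 bases of their own anywhere in the annotated transcripts, and 8 of them reached 1 FPKM, including Rpl31-ps8, Rpl17-ps5, Rps23-ps1, Rps16-ps2 and Rpl10a-ps1. The deposited counts hold no sequence, so whether a read of such a copy came from the copy or from its parent was not tested.

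**Figure D3:**
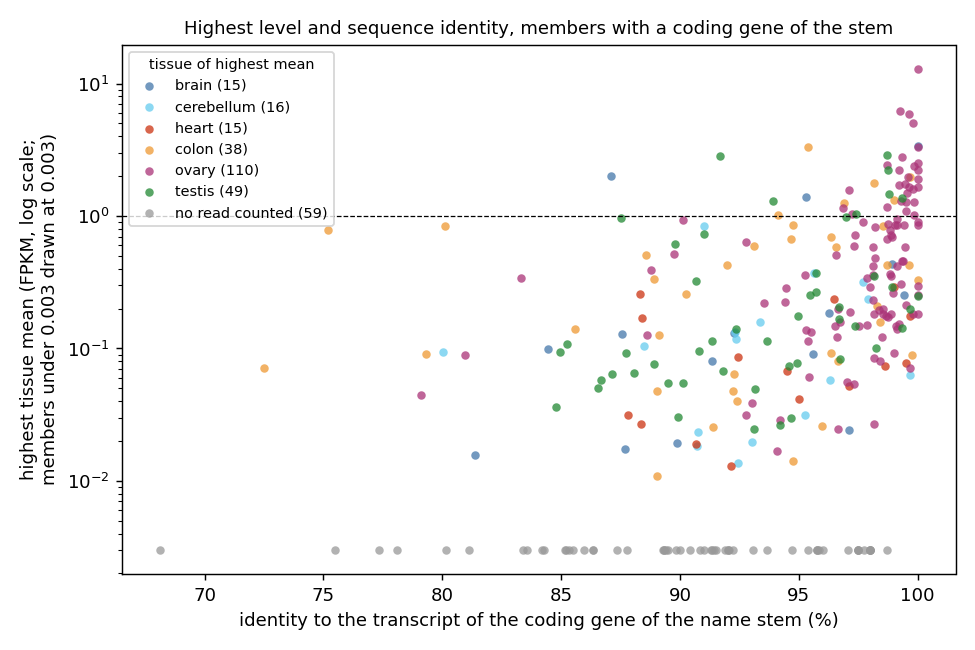
Highest tissue mean in FPKM (y axis, log scale) against the identity of the pseudogene to its parent's transcript (x axis, %), 1 point per member and coloured by the tissue of its highest mean. The dashed line marks 1 FPKM. Most points above the line lie at the right end and are highest in ovary, and the 59 members without a read are drawn at the bottom.

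The 2 largest families differed in how many copies were counted. Of the 24 Rpl31 pseudogenes 7 had no read, and of the 24 Rps12 pseudogenes 15 had none. In each family 3 members reached 1 FPKM. Rpl31-ps8 held 1488 of the 1964 reads of its family, whereas the Rps12 reads were spread over Rps12-ps9 (138 reads), Rps12-ps19 (109 reads) and Rps12-ps4 (91 reads) of 481 reads, all highest in ovary with 1.04 to 1.28 FPKM. Identity to Rps12 was between 89.3% and 100% and to Rpl31 between 83.4% and 100%.

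Genes were compared between tissues with edgeR's quasi-likelihood test, each tissue against the mean of the 5 others, with Benjamini-Hochberg adjustment over the 29911 genes that passed the filter on low counts. Of the members, 71 passed. Of these, 30 passed only through the libraries of 1 tissue (12 through ovary, 10 through colon, 6 through testis, 1 through brain and 1 through heart), so the 71 do not stand for the 304. A higher level of such a member in that tissue was favoured in advance by the filter, and its values are given as a description without a *P* value. A log2 difference is relative to the TMM scaling. The fitted difference of a member with few or no reads outside a tissue depends on the prior count of the fit. The 6 comparisons share libraries, and each is given on its own.

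In ovary, 24 of the 71 members were higher (33.8%) and 1 was lower, against 22.4% of all genes tested that were higher and 19.8% that were lower. The lower member was Rpl29-ps2, at -2.01 ± 0.68 (adjusted *P* = 0.018), and none was lower without any 1 of the 3 ovary libraries, female colon replicate 2 or male heart replicate 1, with library totals or with a block for the library code. Of the 24 higher members, 9 had passed the filter only through ovary. The median log2 difference was 0.90 over the members and -0.15 over all genes. Of the members tested, 7.04% were higher with ovary libraries above all others, against 7.76% of all genes tested. This was so for 5 of the 24 higher members (20.8%), against 34.6% of all genes called higher. Among these 5 members, Rpl23a-ps3 rose by 1.51 ± 0.28 (log2 ± SE, adjusted *P* = 6.5e-05). Rps6-ps4, which passed only through ovary, was higher by 1.54 ± 0.35. Rps6-ps4 is an exact copy of Rps6, which encodes the S6 kinase target of the small subunit, and had 13, 13 and 19 reads in ovary and at most 7 in any other library. The parents Rpl23a and Rps6 rose by 1.26 ± 0.16 and 1.19 ± 0.15. The other 3 were Rpsa-ps7, Rpsa-ps2 and Rpl3-ps2, chosen after their values were seen, which also passed only through ovary and stood at 1.92 ± 0.49, 1.90 ± 0.52 and 2.10 ± 0.65. The count of higher members was 15 without ovary replicate 1, 12 without ovary replicate 2 and 9 with a block made from the library code in the labels (the code divided by 10, without the remainder). It was 41 without the filter on low counts. With scaling to library totals alone it was 43, where 38.5% of all genes were higher and their median moved by 0.49.

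The same direction was seen in the coding genes of the pathway. Of the 62 parents 61 were higher in ovary (median 1.14), and of 89 coding genes of cytosolic ribosomal proteins 83 were. Of 25 ribosome biogenesis factors, such as the nucleolar proteins Ncl and Npm1, 17 were higher and 1 was lower in ovary (median 0.71). Of 17 translation factors 14 were higher and 1 was lower (median 0.69). Markers of other cells also differed between tissues. The summed level of 3 smooth muscle genes was 940 to 1987 FPKM in ovary, 2612 to 6329 in colon, 659 to 1465 in heart, 127 to 170 in testis and 8.27 to 24.9 in brain and cerebellum. That of 4 immune genes was 76.1 to 120 FPKM in ovary, 94.4 to 304 in colon, 49.1 to 169 in heart, 14.2 to 36.9 in testis and 5.36 to 14.1 in brain and cerebellum. That of 4 red cell genes was 6666 to 23132 FPKM in heart, 1545 to 3404 in cerebellum, 328 to 1667 in brain and at most 301 in the other tissues. Their part in the levels of the pseudogenes and of the parents was not tested.

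In testis, 11 members were higher (15.5%) and 9 lower, against 40.4% and 26.7% of all genes tested, and the median was -0.52 over the members and 0.10 over all genes. The parents were mostly lower (39 of 62, median -0.56, with 1 higher), as were 50 of the 89 coding ribosomal protein genes. Of the members tested, 8.45% were higher with all 3 testis libraries above the other 26, against 23.3% of all genes tested. This was so for 6 of the 11 higher members (54.5%), against 57.8% of all genes called higher. Of the 11, 6 had passed the filter only through testis, among them the 5 named next, and without the filter 36 members were higher. Rps15-ps3, a transcribed processed pseudogene, had 41, 51 and 56 reads in testis and at most 5 elsewhere, a difference of 5.56 ± 0.53. Its parent Rps15 fell by 1.04 ± 0.19 on the log2 scale. Reads of Rps15-ps3 were counted over all its exon bases, and whether they fell within the copy of Rps15 was not tested. Rps2-ps7 (chr16:18681337-18682216) had 24, 27 and 31 reads in testis and at most 2 elsewhere, a difference of 6.65 ± 0.54, whereas Rps2 fell by 1.02 ± 0.21. Rps2-ps7 carried 3 frameshifting gaps against its parent, and Rps15-ps3 carried 2.

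Rpl31-ps4, the diverged copy shown above, was counted in testis only, with 31, 31 and 38 reads and 0 reads in the other 26 libraries. Its level of 2.84 ± 0.287 FPKM in testis was 3.49% of that of Rpl31, and in reads it had 100 against 12201 over the testis libraries. The lowest testis library was at least 3.94-fold higher than the level that 3 reads would give in any other library. Rpsa-ps8 (chr17:77362353-77363210), a copy of the laminin receptor and small subunit gene Rpsa with 6 frameshifting gaps, had 12, 17 and 18 reads in testis and 0 elsewhere. It was at least 1.53-fold higher by the same measure. These bounds cover counting error only. Rpl36-ps3 (chr12:12912022-12912336) lies within Gm40271 on the same strand. It had 26, 27 and 29 reads in testis against 35 reads over the 26 other libraries, a difference of 4.49 ± 0.57. Rpl36 itself differed by 0.26 ± 0.22 in testis (adjusted *P* = 0.30). Among the members lower in testis, Rps6-ps4 differed by -1.86 ± 0.52, with 1 to 3 reads per testis library. It passed the filter only through ovary, which is part of the mean that testis was set against, so no *P* value is given. The count of lower members was 4 and 3 without testis replicates 1 and 2, and 2 with the block for the library code. With scaling to library totals, which moved the median of all genes by -0.26, 10 members were higher and 13 lower, against 36.5% and 31.2% of all genes.

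In brain, 5 members were higher and 8 lower, against 33% and 23.1% of all genes tested (median log2 difference -0.42 over members and -0.10 over all genes). The lower members numbered 4 without female brain replicate 2 or 3, 5 with the block for the library code and 13 with DESeq2, and 11 were higher without the filter on low counts. Rpl17-ps1 (chr1:61075674-61076225) had 15, 17, 17, 21, 22 and 36 reads in the 6 brain libraries, 5 reads in 3 cerebellum libraries and none in the 17 libraries of the other tissues. It passed the filter only through brain, where it was higher by 6.64 ± 0.55, and its brain libraries exceeded all others. Higher calls without overlap made up 1.41% of the members tested and 4.93% of all genes tested. Rpl17 itself differed by -0.08 ± 0.17 in brain (adjusted *P* = 0.82), and the copy was 95.3% identical to it. Rps27a-ps1, the diverged copy shown above, rose by 3.67 ± 0.43 in brain (adjusted *P* = 6.6e-08) and by 2.17 ± 0.46 in cerebellum (adjusted *P* = 0.00029), and fell by 2.98 ± 0.98 in heart. Its libraries overlapped between tissues. The other 3 higher members in brain were Rpl19-ps3 (2.73 ± 0.34), Rpl29-ps2 (1.61 ± 0.38) and Rps23-ps1 (1.05 ± 0.25). Rps27a-ps2 was highest in ovary at 1.61 FPKM and its tissue means correlated with those of the parent at 0.97 over the 6 tissues, against 0.25 for Rps27a-ps1.

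In cerebellum, 3 members were higher and 9 lower, against 30.8% and 22% of all genes tested (median log2 difference -0.55 over members and -0.10 over all genes). Of the parents 58 were lower and none was higher. The 3 higher members were Rpl19-ps3, Rps27a-ps1 and Rps23-ps1 (0.65 ± 0.26, adjusted *P* = 0.035). With scaling to library totals 4 were higher and 5 lower (34.5% and 17.9% of all genes), with the size factors of DESeq2 2 were higher and 14 lower, and without replicate 3 of the female heart 15 were lower. Without the filter on low counts 8 were higher, and DESeq2 called 15 lower. Rpl19-ps3 (chr14:49103507-49122712), a transcribed processed pseudogene of a large subunit gene with an open frame of 27.6% of the parent's, had 33 to 76 reads in cerebellum (median 64), 23 to 39 in brain (median 33) and 25, 34 and 45 in ovary. In colon it had 0 to 3 reads, in testis 3, 5 and 12, and in the 5 heart libraries none. The span of this locus is far longer than the median exon length of the members. Reads were counted over all its exons, and whether they fell within the copy of Rpl19 was not tested. Rpl19-ps3 was higher in cerebellum by 3.86 ± 0.31 (adjusted *P* = 2.8e-10) and in ovary by 2.67 ± 0.39 (adjusted *P* = 6.3e-06).

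In colon, 17 members were higher (23.9%) and 1 was lower, against 28.2% and 31.1% of all genes tested (median log2 difference -0.01 over members and -0.38 over all genes). The lower member was again Rpl29-ps2, at -1.35 ± 0.55 (adjusted *P* = 0.038), and no member was lower with scaling to library totals or the size factors of DESeq2, with a block for the replicate number or the library code, or without female heart replicate 3, testis replicate 2, female colon replicate 1 or 3, or male colon replicate 3. Of the 17 higher members, 8 had passed the filter only through colon. Rpl31-ps13 had 7, 9, 9, 12, 12 and 13 reads in colon and 8 reads over the 23 other libraries, at most 3 in any of them. It passed the filter only through colon, where it was higher by 5.32 ± 0.54 with no overlap, whereas Rpl31 differed by -0.13 ± 0.15 (adjusted *P* = 0.55). Higher calls without overlap made up 1.41% of the members tested and 6.52% of all genes tested. Rpl17-ps8, chosen after its values were seen, rose by 3.59 ± 0.46. It lies within Heph on the same strand, a gene for a ferroxidase of the intestine. Of the ribosome biogenesis factors 24 of 25 were lower in colon and none was higher, and of the translation factors 11 were lower and 3 higher.

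In heart, 7 members were higher and 6 lower, against 22.1% and 29.6% of all genes tested (median log2 difference 0.19 over members and -0.55 over all genes). Of the 7 higher members, 1 had passed the filter only through heart. Among the parents 53 were higher and 1 was lower, in the tissue with the highest red cell markers (6666 FPKM or more). Scaling to library totals alone, which moved the median of all genes by -0.48, left 1 member higher and 10 lower, against 13.6% and 42.8% of all genes. Without female heart replicate 3, which stood apart, 8 were higher and 10 lower, and without female or male heart replicate 1 the higher members numbered 3. No heart call among the members had libraries that did not overlap with the other tissues. This was so for 3.43% (higher) and 2.8% (lower) of all genes tested.

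**Figure D4:**
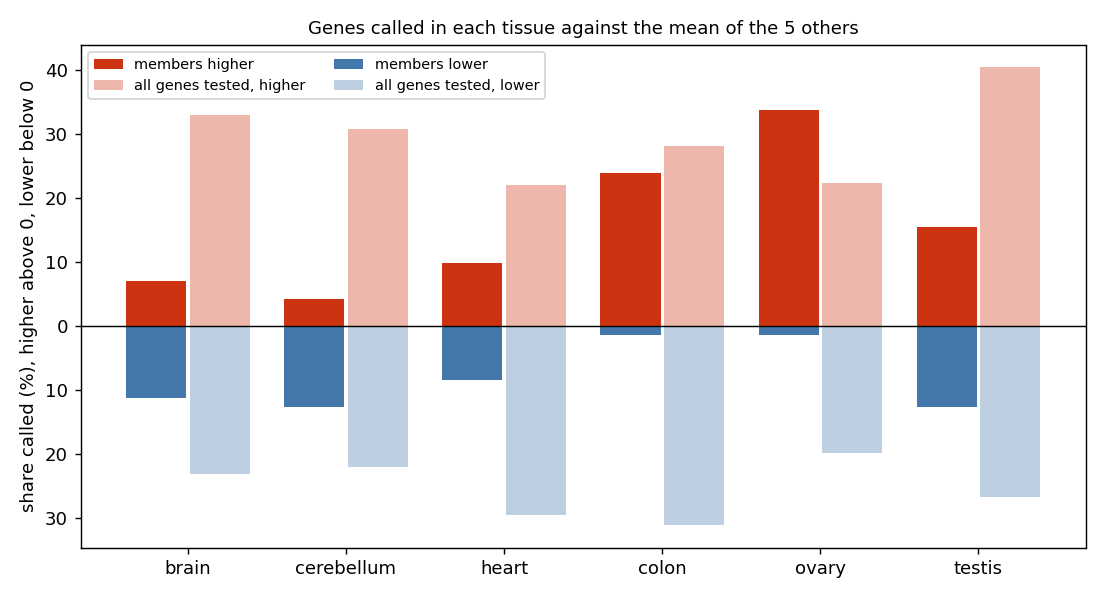
Share of genes called higher (above 0) and lower (below 0) in each tissue against the mean of the 5 others, in percent, for the 71 members tested (dark bars) and all 29911 genes tested (pale bars); edgeR, adjusted *P* under 0.05. In ovary 33.8% of members were higher against 22.4% of all genes, but 9 of these 24 members had passed the filter only through ovary. The same held, each for its own tissue, for 8 of 17 in colon, 6 of 11 in testis, 1 of 7 in heart and 1 of 5 in brain. In brain 7.04% and in cerebellum 4.23% of members were higher.

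Between males and females, averaged over brain, cerebellum, heart and colon, 0 of the 71 members passed the test in edgeR in either direction, against 0.0301% of all genes that were higher and 0.0736% that were lower in males. At an unadjusted *P* under 0.05 there were 5 members, and DESeq2 called 0.

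The ratio of a pseudogene to its parent within a library removes the scaling between libraries. It was tested with limma as log2 of the counts with 0.5 added, for 171 pairs of a named pseudogene and its parent, of which 71 were members, each tissue against the mean of the 5 others. Where a pseudogene had no read, the ratio was set by the added 0.5 and by the parent's count. A lower ratio may then state only that the parent was high, and the size of a higher ratio depends on the added value where the other tissues had no read. In testis the ratio differed for 16 of 71 members, 14 of them higher, against 44.4% of all pairs in either direction. It differed for 17 members in brain (5 higher), against 40.4%, and for 9 in cerebellum (7 higher), against 32.7%. In colon it differed for 18 members (12 higher), against 40.4%, and in heart for 17, all lower, against 29.2%. Of the higher ratios, 6 of 14 in testis, 8 of 12 in colon and 1 of 5 in brain belonged to members that had passed the filter only through that tissue. The filter thus favoured these counts in advance. In ovary 9 members differed, all lower, against 31%, and 3 of these 9 had no read in ovary. With 2 added to the counts in place of 0.5, 16 members differed in ovary. Of the 17 lower ratios in heart, 6 belonged to members without a read in heart, and the count in heart was 10 and 11 without male heart replicates 1 and 2. With pseudogenes of a mean count of at least 10 alone, 3 members differed in brain, 3 in cerebellum, 4 in heart, 4 in colon, 2 in ovary and 1 in testis.

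In ovary, where 61 parents and 24 members rose, limma called 0 members with a higher ratio to the parent, and 2 had a higher ratio at an unadjusted *P* under 0.05. In heart these counts were 0 and 1. No ratio is given for Rpl31-ps4 in testis, Rpl17-ps1 in brain and Rpl31-ps13 in colon, which passed the filter only through that tissue and had 0, 5 and 8 reads outside it. For Rpl19-ps3 in cerebellum the ratio was higher by 3.86 ± 0.32 (adjusted *P* = 3.3e-11), a size that rests in part on the added 0.5, since heart had no read. Nor is a lower ratio given for Rpsa-ps8 in ovary, Rpl19-ps3 in heart and Rpl31-ps4 in brain and cerebellum, each without a read there, or for Rpl19-ps3 in colon, with 5 reads over 6 libraries. In testis the smallest adjusted *P* among lower ratios was that of Rpl9-ps7 (99.5% identical to Rpl9), which had 0, 1 and 2 reads in testis and 14 to 29 in ovary. Its ratio fell by 1.77 ± 0.49 (adjusted *P* = 0.0031).

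**Figure D5:**
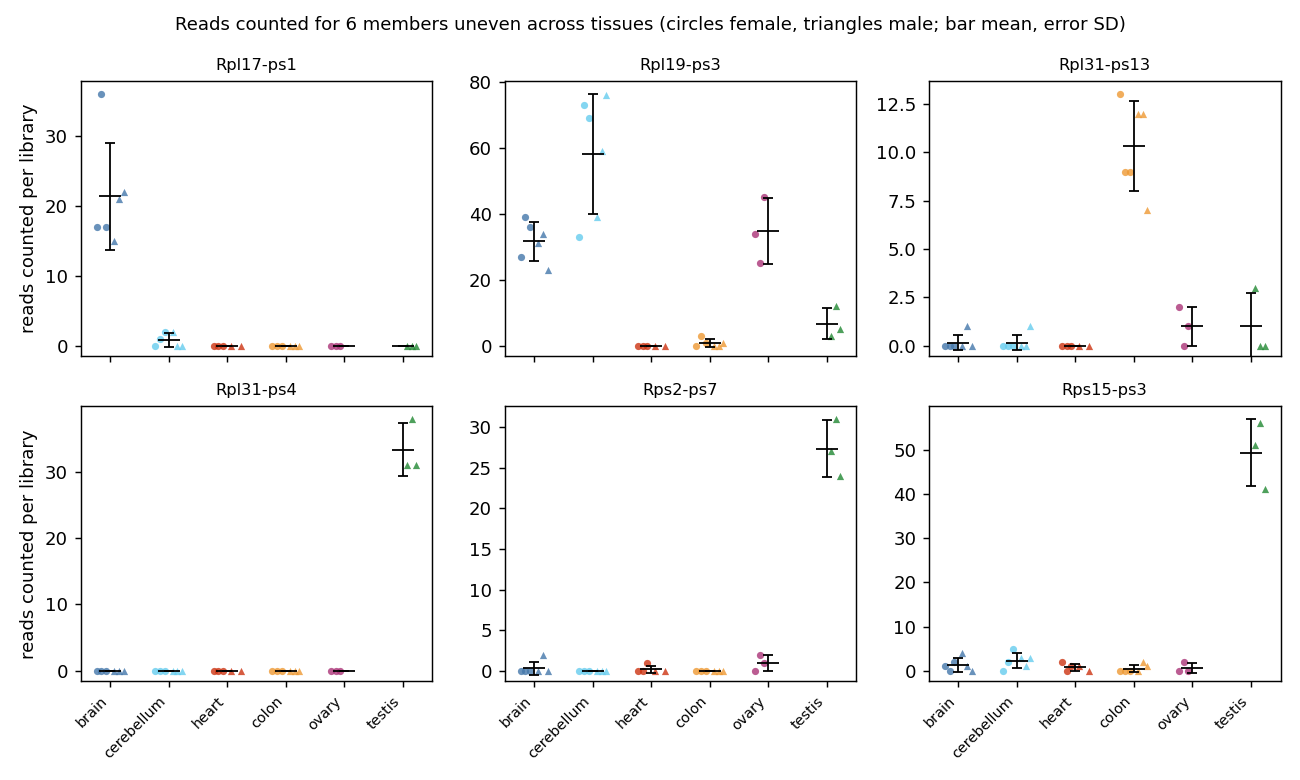
Reads counted per library (y axis) for 6 ribosomal protein pseudogenes by tissue (x axis), 1 point per library with circles for female and triangles for male; black bars give the mean and error bars the SD. Rpl17-ps1 is high in brain, Rpl19-ps3 in cerebellum, brain and ovary, Rpl31-ps13 in colon, and Rpl31-ps4, Rps2-ps7 and Rps15-ps3 in testis.

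Some members with long-read support in the study were scarcely counted in the short reads. Rps12-ps26 and Rps19-ps3 had 0 reads in all 29 libraries, and they share exon bases on the same strand with Nol11 and Zfp933. A count of 3 would correspond to at most 0.767 and 0.60 FPKM in any library. Rpl15-ps3, an exact copy of Rpl15, had 12 reads in all, 7 of them in ovary. Rpl17-ps9 had 0 to 8 reads per colon library (0.428 ± 0.341 FPKM) and 0 to 9 elsewhere. Rps2-ps10 had 8, 9 and 14 reads in ovary (0.456 ± 0.106 FPKM) and passed the filter only through ovary, with libraries that overlapped those of other tissues.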

How the data were processed

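RNA was measured in 29 strand-specific, rRNA-depleted libraries. The deposited values, which the authors did not normalize, are whole-number read counts for each gene, for which the submitters' processing notes name HISAT2 2.0.5, featureCounts 1.6.3 and mm10, from reads that according to the study's methods mapped uniquely. The study's methods give another aligner, STAR, and featureCounts for counting in their sentence on human data. For these counts HISAT2 is thus the only aligner named, without a statement of its role. The strand setting is not given in the sources used here. The annotation combined long-read loci with ENSEMBL genes, and 41909 of 42070 genes compared had the coordinates of GENCODE M21 (GRCm38.p6), which supplied transcript sequences. Members and gene lists were chosen with earlier results of these data known.

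Libraries were grouped by the tissue and sex of their labels, and all 29 count columns were used. FPKM was computed as CPM, computed from the library total, over the kilobases of the union of exons. Tissues were compared with edgeR 4.0.16 (quasi-likelihood test, TMM, filterByExpr, a mean for each of the 10 groups), adjusted after Benjamini and Hochberg at 0.05. Ratios were tested with limma 3.58.1 after adding 0.5. DESeq2 1.42.0, another scaling, filter, block or threshold, and leaving out each library were the alternatives. The tests were tried on simulated counts. The named members were the 12 with the highest level, up to 2 per direction and comparison with the smallest adjusted *P* and no overlap, up to 1 per direction and tissue in the ratio test, those with long-read support in the study, and the largest families. Libraries of 11742417 to 36194255 reads limit precision, since 3 reads were the smallest count taken to bound a level, and bounds cover counting error only. Sequences were aligned with Biopython 1.88, and uniqueness was judged among annotated transcripts only. No replicate pair was identical (28 pairs, chi-square per gene of 11.1 or more). An item withheld from this text is not reported here.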

Additional observations from a re-analysis of the deposited data

Results flagged for a closer look

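In 7 of the 48 sets of libraries of 1 tissue that could be examined, the highest library lay far from the nearest other by Dixon's criterion. Chance meets it in about 1 of 20 sets of independent, normally distributed values. These sets hold small counts over unequal totals and share libraries, so that rate does not apply and no excess is claimed. Rpl31-ps8 reached 7.81 FPKM (80 reads) in female cerebellum replicate 3, against 2.91 to 4.72 FPKM in the other cerebellum libraries, and that library also had the highest share of reads in the parents among the cerebellum libraries (1.36%). The same pseudogene reached 9.91 FPKM (64 reads) in female colon replicate 2, against 4.56 to 5.93 FPKM in the other colon libraries, beside 2.10% of reads in the parents. Rps23-ps1 reached 6.22 FPKM (68 reads) in female brain replicate 1, against 2.06 to 3.51 FPKM. Rpl15-ps2 reached 2.31 FPKM (34 reads) in female heart replicate 3, the heart library that stood apart, against 0.195 to 0.805 FPKM. Rpl31-ps13 reached 2.93 FPKM in female colon replicate 1, on 13 reads, against 1.39 to 1.69 FPKM. That library had the lowest total of counted reads (11742417). Rpl9-ps7 reached 0.845 FPKM in male cerebellum replicate 3, on 12 reads, against 0.135 to 0.255 FPKM. Rps2-ps10 reached 0.777 FPKM in male colon replicate 3, on 10 reads, against 0 to 0.141 FPKM. The causes were not tested.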

How the results depend on the processing

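The 7 log2 differences named by the tissue comparisons kept their direction and their call in all 245 repeats under the alternatives. This says nothing of stability for Rpl17-ps1 in brain, Rpl31-ps13 in colon, Rps15-ps3 and Rps2-ps7 in testis and Rps6-ps4 in ovary, since these passed the filter only through that tissue. Nor does it for Rps6-ps4 in testis, since ovary, its only route past the filter, is part of the mean that testis was set against. Counts of called members moved more. Without the filter on low counts, 11 members were higher in brain, 8 in cerebellum, 41 in ovary and 36 in testis, and 2 were lower in colon. DESeq2 called 13 lower in brain and 15 lower in cerebellum, and its size factors in edgeR gave 14 lower in cerebellum and 0 lower in colon. With library totals, 5 were lower in cerebellum, 1 higher and 10 lower in heart, 0 lower in colon, and 43 higher and 0 lower in ovary. With the block for the library code, 5 were lower in brain, 0 in colon, 0 in ovary and 2 in testis, and 9 were higher in ovary. Replicate numbers did not pair the libraries (mean correlation of deviations -0.005 for the same number and 0.003 for others). For the same block of the library code the mean was 0.0204 and 7.55% of pairs exceeded 0.1, against -0.00926 and 1.74% for other blocks of the same sex. With the replicate block 19 members were higher in ovary, 15 in colon and 0 lower in colon.

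Leaving out single libraries gave 5 to 6 higher and 4 to 11 lower members in brain, 2 to 4 and 6 to 15 in cerebellum, 3 to 9 and 4 to 10 in heart, 14 to 17 and 0 to 3 in colon, 12 to 26 and 0 to 1 in ovary, 8 to 12 and 3 to 10 in testis, and 0 in both directions between the sexes. Brain had 4 lower members without female brain replicate 2 or 3. Ratios differed for 14 to 18 members in brain, 6 to 10 in cerebellum, 10 to 18 in heart (10 and 11 without male heart replicates 1 and 2), 16 to 21 in colon, 7 to 11 in ovary and 12 to 17 in testis. With a mean count of at least 10 for the pseudogene, which leaves fewer pairs, they differed for 3, 3, 4, 4, 2 and 1 members in these tissues, and with 2 added to the counts for 16 in ovary.

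Members at the level threshold numbered 79 at 0.5 FPKM, 17 at 2 FPKM, 75 by the highest library, 10 by the mean over all libraries, and 42 to 48 without single libraries. Those that peaked with their parent numbered 49 at 0.5 FPKM, 11 at 2 FPKM, 16 with TMM-scaled totals and 24 to 32 without single libraries. Except where a smaller set is named, the cause was not tested. At these depths most members rested on few reads, and a member without reads was not detectable rather than absent.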
